A study of Mus musculus with 6 samples.

Results

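Open chromatin was examined at 10 genes of the p53 response in stromal cells of mouse bone marrow after doxorubicin chemotherapy. The genes were *Trp53* itself, its regulator *Mdm2*, and the target genes *Cdkn1a*, *Btg2*, *Ccng1*, *Bbc3*, *Perp*, *Phlda3*, *Trp53inp1* and *Polk*. They were chosen by name, and they are 10 of 21627 protein-coding genes. A peak counted for a gene when its summit lay within the gene or within 100 kb of it and no other protein-coding gene was nearer. By this rule 56, 55 and 57 of 91026, 91060 and 100642 peaks belonged to them in DOX replicates 1, 2 and 3, and 51, 54 and 45 of 88348, 89264 and 65462 peaks in PBS replicates 1, 2 and 3.

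The DOX group comprised 3 libraries from female Lepr-Cre;LSL-tdTomato+/- mice that received 4 intravenous injections of 5 mg/kg doxorubicin, 1 week apart, starting at 8 to 10 weeks of age. The PBS group comprised 3 libraries from female mice of the same genotype and age that received 4 intravenous injections of phosphate-buffered saline at the same interval. Both groups were taken 8 weeks after treatment, and tdTomato+ mesenchymal stem and progenitor cells (MSPCs) were sorted from digested marrow. Cre is driven by the leptin receptor gene in these mice, so that every cell that ever expressed it, and its descendants, carries the red reporter. Whether each library pools several mice is not stated in the labels. Accessibility was measured by ATAC-seq, a method in which Tn5 transposase inserts adapters into accessible DNA and a peak marks an accessible stretch. It reports accessibility and not p53 binding or expression.

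Doxorubicin is an anthracycline that traps topoisomerase II on DNA and leaves breaks. DNA breaks stabilise the transcription factor p53, which binds pairs of a short half-site and switches on genes for cell cycle arrest, apoptosis and repair. Mdm2 is the ubiquitin ligase that marks p53 for destruction, and p53 switches on *Mdm2* in turn, which closes a feedback loop. Many p53 target genes keep accessible promoters in unstressed cells.

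Each library had its own list of peaks, and the lists differed in depth. The background, the mean pileup per position that the peak caller had used, was solved from the fold enrichment and p-value of peaks. It was 1.72, 1.67 and 2.22 in DOX replicates 1, 2 and 3, against 1.27, 1.10 and 0.558 in PBS replicates 1, 2 and 3. Whether a pileup counts fragments or read ends is not given. The groups did not overlap (two-sided exact permutation test, p = 0.10, the smallest that 3 against 3 libraries can give), so depth and treatment cannot be told apart. To make the lists equally long, the strongest 65462 peaks of each library were kept, and their median width was 505, 516 and 542 bp in DOX and 439, 476 and 328 bp in PBS. PBS replicate 3 was the shallowest. Leaving it out changed 0 calls at the members, none of which was called, but moved 19 of their 34 nonzero estimates by more than 1.5 times. Of 9 stromal marker genes such as *Cxcl12* and *Lepr*, 7 to 8 had a summit within 1 kb of a gene end in each library, against 0 to 1 of 5 myeloid, 1 of 5 B cell, 0 of 4 T and NK cell, 1 to 2 of 4 erythroid and 1 of 5 endothelial markers. The defining blood cell marker *Ptprc* had none in any library.

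Promoter sequences are shown first, because the annotated promoters of the members differ in whether they hold a p53 half-site that lies under a peak. Sequence under the rest of each peak was not searched. The RefSeq promoter table (GRCm38.p6, the assembly that mm10 displays) held 12 annotated starts for 8 members and none for *Trp53inp1* and *Perp*. The 10-base p53 half-site consensus was searched on both strands in the 250 bases before and 50 bases after each start, together with a full site (half-sites separated by 0 to 13 bases) and with a core of CATG, any 6 bases and CATG again, which can overlap a half-site. A half-site was found in 5 of the 12 promoters, against 1551 of all 21044 promoters (7.37%). A full site was found in 10 of all promoters (0.0475%) and the core in 148 (0.703%). Below are the 250 bases before a start, 5′ to 3′ on the strand of the gene, for the promoters with a half-site that lies under a peak and for both starts of *Cdkn1a*. Capitals mark half-sites and the core.
*Cdkn1a*, upstream start (chr17:29090729-29090978, plus strand): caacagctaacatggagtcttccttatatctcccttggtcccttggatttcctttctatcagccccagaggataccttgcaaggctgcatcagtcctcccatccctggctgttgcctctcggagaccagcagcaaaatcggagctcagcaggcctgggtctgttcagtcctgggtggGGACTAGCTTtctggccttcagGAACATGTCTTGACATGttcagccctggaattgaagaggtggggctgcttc
*Cdkn1a*, downstream start (chr17:29093519-29093768, plus strand): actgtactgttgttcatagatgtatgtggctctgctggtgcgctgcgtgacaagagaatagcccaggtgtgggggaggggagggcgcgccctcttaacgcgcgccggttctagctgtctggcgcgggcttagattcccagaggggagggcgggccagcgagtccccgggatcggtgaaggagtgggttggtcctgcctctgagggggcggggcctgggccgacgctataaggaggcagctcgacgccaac
*Mdm2* (chr10:117710759-117711008, minus strand): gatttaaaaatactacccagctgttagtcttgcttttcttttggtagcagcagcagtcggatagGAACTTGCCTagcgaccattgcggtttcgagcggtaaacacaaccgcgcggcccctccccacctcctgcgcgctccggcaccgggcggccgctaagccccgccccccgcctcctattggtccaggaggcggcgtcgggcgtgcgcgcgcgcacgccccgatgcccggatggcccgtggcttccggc
*Trp53* (chr11:69580109-69580358, plus strand): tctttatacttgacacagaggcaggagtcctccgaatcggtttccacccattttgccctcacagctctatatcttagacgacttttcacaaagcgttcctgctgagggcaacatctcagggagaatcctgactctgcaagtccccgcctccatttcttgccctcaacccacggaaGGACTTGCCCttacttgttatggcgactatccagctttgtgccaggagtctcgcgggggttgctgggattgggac
*Ccng1* (chr11:40755287-40755536, minus strand): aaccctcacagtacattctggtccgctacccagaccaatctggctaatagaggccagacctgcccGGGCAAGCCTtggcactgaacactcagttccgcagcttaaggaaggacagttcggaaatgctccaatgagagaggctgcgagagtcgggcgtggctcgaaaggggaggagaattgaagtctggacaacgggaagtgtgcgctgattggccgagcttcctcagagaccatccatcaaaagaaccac

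The *Cdkn1a* sequences show the contrast most plainly. The upstream promoter held half-sites beginning 73 and 51 bases before the start. The search paired them as a full site (chr17:29090906-29090937). It also found the core, which begins inside the second half-site. The bases directly after that half-site, TGACATGTTC, begin with T, which the consensus does not allow, so they were not counted. A full site made of GAACATGTCT and these abutting bases was therefore outside the search. No library listed a peak over the upstream promoter, also in the full deposited lists. The nearest peak lay 2441, 2450 and 2437 bp from the full site in DOX replicates 1, 2 and 3, and 2480, 2423 and 2498 bp from it in PBS replicates 1, 2 and 3. The downstream promoter held none of these motifs, and it lay under a peak in all 6 libraries. The CpG-rich character of the promoters differed as well: the upstream *Cdkn1a* promoter had 2 CpG in its 300 bases and the downstream one 23, against a median of 13 over all promoters. The half-sites of *Mdm2*, *Trp53* and *Ccng1*, beginning 186, 75 and 185 bases before the start, lay under a peak in all 6 libraries. The half-site 231 bases before the second annotated start of *Polk* lay under none. A match is a description of letters and not evidence of binding.

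Of the 12 annotated starts, 10 were covered by a peak in all 6 libraries and 2 in none, the upstream start of *Cdkn1a* and the second start of *Polk*. Over all 21044 starts, 51.7% were covered in all 6 libraries and 43.0% in none. Peaks that overlapped between libraries by at least 1 bp were merged into regions, and regions with a peak in all 6 equal-length lists were ranked within each library, from percentile 0 for the weakest to 100 for the strongest. Members' starts with a shared region ranked high in both groups: the start regions of the 8 genes and the gene-end region of *Trp53inp1* had median percentiles of 84.6 to 99.1. All 9 were above the median of 84.1 of the 9221 shared regions that cover a start. *Perp* is not among the 9, because it had no peak at a gene end in the equal-length lists and so no percentile there. Shared regions without a start had a median of 42.0. The *Trp53* region took its percentile from its strongest peak, with a summit 1163 to 1192 bp inside the gene. In DOX replicates 1 and 2 and PBS replicates 1 and 3 that peak was too narrow to reach the start.

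No region at these genes was called different after doxorubicin. The members held 43 regions, of which 28 had a peak in all 6 libraries, 11 in 2 to 5 and 4 in a single one. No member region passed the limma test at an adjusted p of 0.05, and neither did any of the 49098 shared regions (0%). An unadjusted p under 0.05 was reached by 4 of the 28 shared member regions, against 6496 of all shared regions (13.2%). Of the 28 shared member regions, 15 had a higher and 13 a lower mean percentile in DOX than in PBS, with a median difference of 0.064 percentile points, against -0.037 over all shared regions. All DOX libraries lay above all PBS libraries in 4 member regions, against 9.37% of all shared regions, and below them in 2, against 9.41%. A rank compares a region with others of the same library. In sorted cells, fewer cells with an open region and less opening per cell cannot be told apart.

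**Figure D1:**
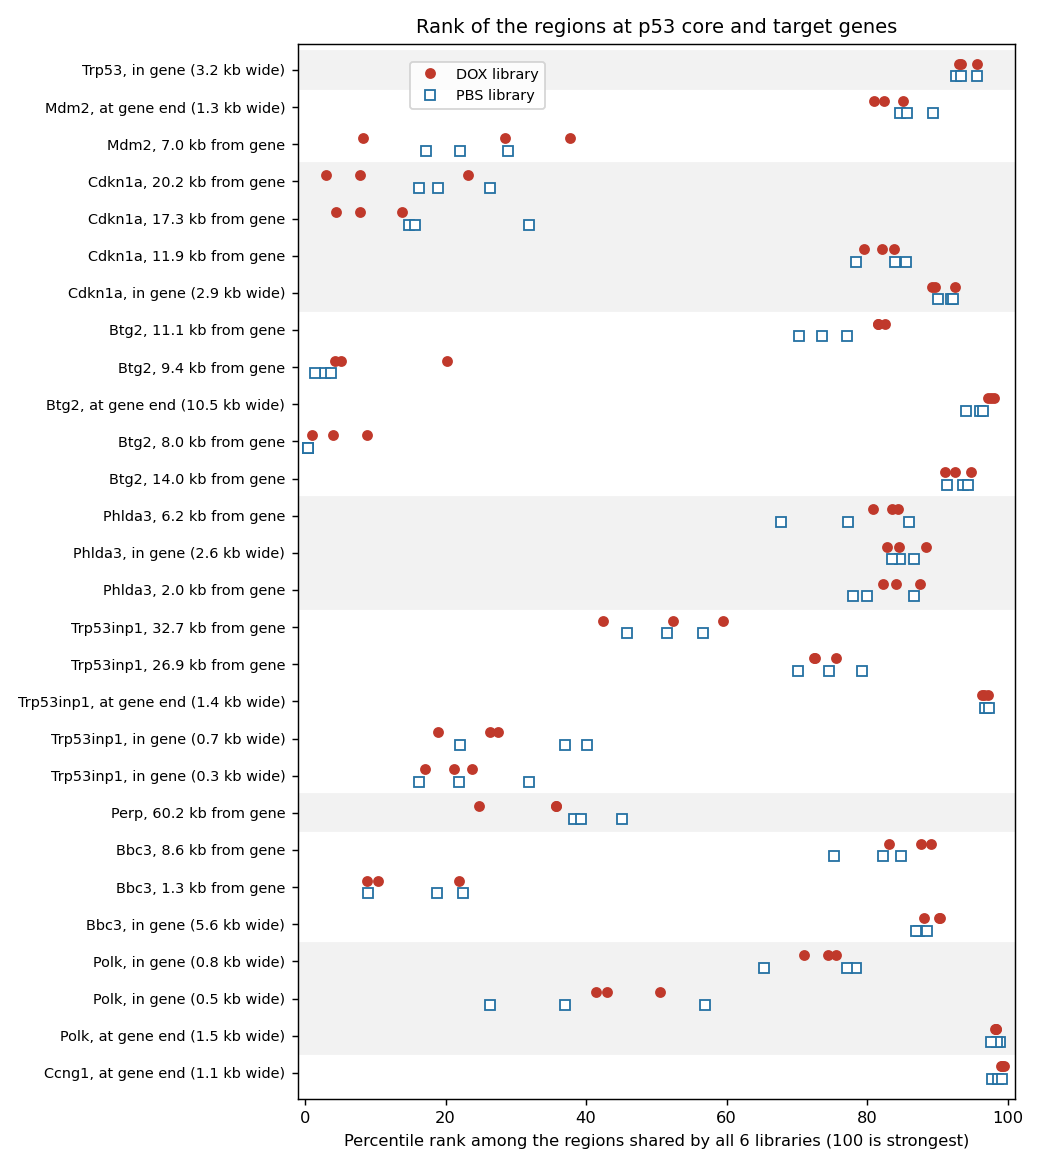
Percentile rank of each of the 28 shared regions of the members in 3 DOX libraries (filled circles) and 3 PBS libraries (open squares); 1 row is 1 region, named by its gene and its distance from the gene span, and the x axis runs from 0 (weakest of the 49098 shared regions) to 100 (strongest). Regions at gene starts sit at the right in both groups, and the groups are apart without overlap in 4 *Btg2* rows, where DOX is higher, and in 1 *Cdkn1a* and 1 *Perp* row, where DOX is lower.

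In the equal-length lists the members together had 34, 35 and 37 peaks in DOX replicates 1, 2 and 3 and 37, 39 and 45 in PBS replicates 1, 2 and 3. In the full deposited lists they had 56, 55 and 57 peaks in DOX and 51, 54 and 45 in PBS. Genes averaging 2 or more peaks were tested with limma on log2(peaks + 0.5), a scale that understates changes of low counts. Of the 8 members tested, 0 were called in either direction, against 50 genes called higher (0.56%) and 48 called lower (0.538%) of 8927 tested or 98 in all (1.1%). At an unadjusted p under 0.05 there was 1 of the 8 members tested, *Trp53inp1*, against 487 of all 8927 tested genes. Of those 98 genes, 94 had the same number of peaks in the 3 libraries of each group, a spread of 0 that makes calls easy.

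**Figure D2:**
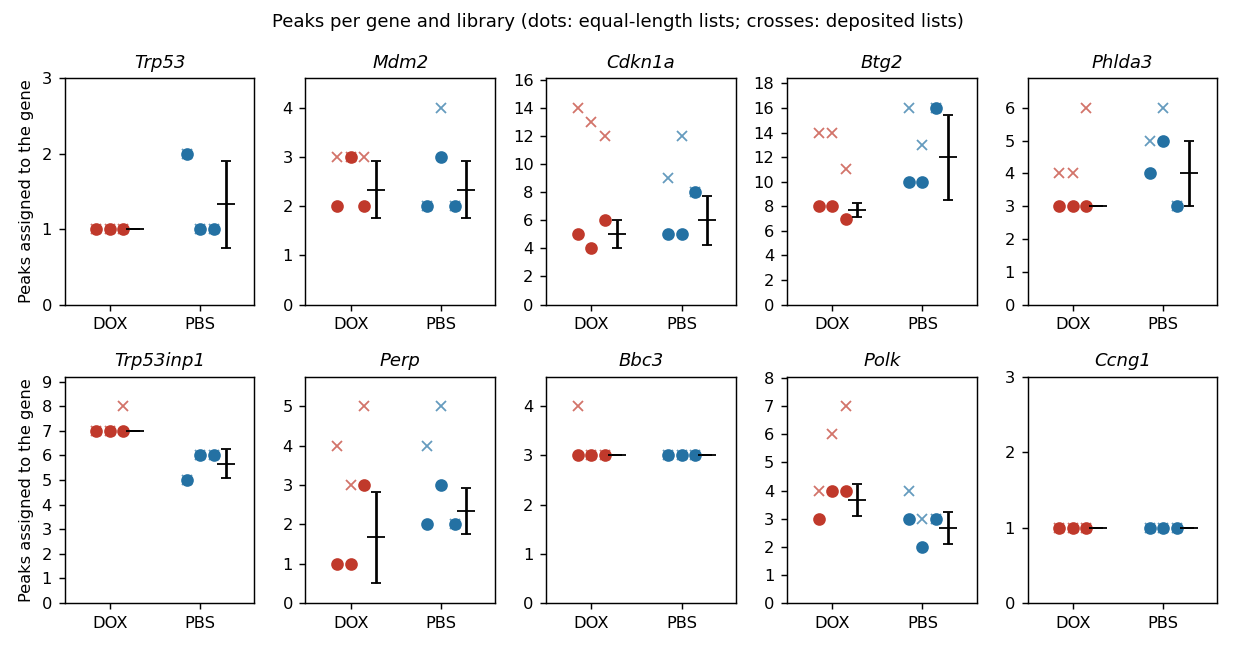
Peaks assigned to each of the 10 genes, with DOX libraries left and PBS libraries right in each panel; dots are the equal-length lists with mean ± SD (n = 3), crosses the full deposited lists, and the y axis counts peaks from 0. *Trp53inp1* has 7 peaks in every DOX library and 5 or 6 in PBS, *Btg2* has 7 or 8 in DOX and 10 to 16 in PBS, and the groups overlap in the other 8 panels.

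*Trp53* and *Mdm2* form the core of the feedback loop. *Trp53* (chr11:69580348-69591873) had 1, 1 and 1 peak in DOX and 2, 1 and 1 in PBS, too few to test. Its region (chr11:69578804-69581986) covered the start and also the edge of *Wrap53* that faces *Trp53*. *Wrap53* is the divergent neighbour that encodes a telomerase and Cajal body protein. The summit of the region lay 1163 to 1192 bp inside *Trp53* in all 6 libraries. The region's percentile was 93.1, 95.6 and 93.4 in DOX replicates 1, 2 and 3, against 92.6, 93.3 and 95.6 in PBS replicates 1, 2 and 3. The groups overlapped, with a difference of 0.16 ± 0.93 (SE) percentile points (limma, adjusted p = 0.964). The share of the neighbourhood that fell to *Trp53* was small, since 26, 34 and 29 listed peaks in DOX and 33, 28 and 29 in PBS lay within 100 kb of it and nearly all had a nearer gene.

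*Mdm2* (chr10:117688875-117710758, minus strand) had 2, 3 and 2 peaks in DOX and 2, 3 and 2 in PBS. The region at its start (chr10:117709863-117711204), which holds the half-site printed above, had percentiles of 80.9, 85.1 and 82.4 in DOX, against 84.7, 85.7 and 89.4 in PBS. DOX replicate 2 lay above PBS replicate 1, so the groups overlapped, and the mean in DOX was lower by 3.83 ± 1.53 percentile points (limma, unadjusted p = 0.0255, adjusted p = 0.307). Without PBS replicate 3 the difference was -2.26. The second shared region, 7.0 kb upstream, had percentiles of 8.26, 37.7 and 28.4 in DOX and 22.1, 17.2 and 28.9 in PBS, with a difference of 2.07 ± 7.43 (adjusted p = 0.937). The remaining region, 5.70 kb upstream, was in the equal-length lists of 1 DOX and 1 PBS library and in the full lists of 3 DOX libraries and 1 PBS library.

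Among the members that restrain the cell cycle, *Cdkn1a* encodes p21, the inhibitor of cyclin-dependent kinases that carries out much of the p53 arrest. The gene (chr17:29090979-29100722) had 5, 4 and 6 peaks in DOX and 5, 5 and 8 in PBS, and the groups overlapped (log2 fold change -0.23 ± 0.25, limma adjusted p = 0.871). The estimate was -0.016 without PBS replicate 3, the library with 8 peaks, -0.089 without DOX replicate 2 and -0.35 without DOX replicate 3. In the full deposited lists it had 14, 13 and 12 peaks in DOX and 9, 12 and 8 in PBS, and with those lists the centred log2 fold change was 0.11 (adjusted p = 0.817). The added peaks lay mostly over the gene body and beyond its end.

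The *Cdkn1a* start region (chr17:29093360-29096303) was 1 broad peak in each library, 2926, 2653 and 2828 bp wide in DOX and 2405, 2535 and 2314 bp wide in PBS. Its percentile was 89.2, 89.7 and 92.6 in DOX, against 90.1, 91.9 and 92.2 in PBS, with overlapping groups and a difference of -0.92 ± 1.04 (adjusted p = 0.745), which ran from -1.93 to -0.29 as each library was left out in turn. The summit lay 20 to 22 bp before the downstream start in all 3 DOX libraries and in PBS replicate 3, and 1743 bp after it in PBS replicates 1 and 2. The next strongest region, 11.9 kb upstream of the gene (chr17:29077864-29079451), had percentiles of 83.8, 79.5 and 82.2 in DOX and 84.0, 85.6 and 78.4 in PBS.

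Farther upstream *Cdkn1a* had weak regions that ranked lower in DOX without passing the test. The region 17.3 kb upstream (chr17:29073119-29073888) had percentiles of 4.47, 13.9 and 7.78 in DOX, against 14.8, 15.6 and 31.8 in PBS. All DOX libraries lay below all PBS libraries, and the difference was -12.0 ± 5.80 (adjusted p = 0.395). Without PBS replicate 3, the highest library, the difference was -7.71. The region 20.2 kb upstream had percentiles of 2.93, 7.80 and 23.2 in DOX and 16.3, 26.4 and 18.9 in PBS, with overlapping groups and a difference of -9.19 ± 6.11 (adjusted p = 0.547). Of the other 5 regions of the equal-length lists, 3 were held by PBS replicate 3 alone, 1 by DOX replicate 3 and PBS replicate 3, and 1 by 5 libraries. In the full deposited lists each of these 5 had peaks in 2 or 3 libraries of both groups.

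*Btg2*, an antiproliferative gene that acts on mRNA deadenylation and is a known p53 target, had the most peaks among the members. The gene (chr1:134074865-134079155, minus strand) had 8, 8 and 7 peaks in DOX, against 10, 10 and 16 in PBS. The groups did not overlap, as for 2.31% of tested genes in this direction, and the difference was not called (log2 fold change -0.58 ± 0.22, limma unadjusted p = 0.0529, adjusted p = 0.655). Without PBS replicate 3, the library with 16 peaks, the log2 fold change was -0.37. In the full deposited lists the counts overlapped, with 14, 14 and 11 peaks in DOX and 16, 13 and 16 in PBS.

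The lower number of *Btg2* peaks in DOX went with wider ones. The gene lay within a single merged region (chr1:134069707-134080165, 10459 bp), which held 3, 2 and 2 peaks in DOX and 4, 4 and 9 in PBS. These covered 9575, 8280 and 10249 bp in DOX and 4591, 8457 and 6223 bp in PBS. The strongest of them, at the start, was 2853, 2820 and 3324 bp wide in DOX, against 1524, 2298 and 1497 bp in PBS, and peaks were wider in DOX across the genome too. When regions rather than peaks were counted, the log2 fold change was -0.20 (adjusted p = 0.690). The part of depth and width in the peak count was not tested.

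By rank, 4 of the 5 shared *Btg2* regions had a higher mean in DOX, and none of the 5 was called. The gene region had percentiles of 97.6, 98.1 and 97.3 in DOX, against 96.0, 94.0 and 96.5 in PBS, with no overlap and a difference of 2.11 ± 0.71 (unadjusted p = 0.0102, adjusted p = 0.239). The region 11.1 kb beyond the end of the gene (chr1:134062232-134064595) had percentiles of 81.5, 81.5 and 82.5 in DOX, against 73.5, 70.2 and 77.1 in PBS. Its summit pileups were 222, 244 and 338 in DOX and 127, 107 and 62 in PBS, values that are not scaled between libraries. All DOX libraries lay above all PBS libraries, by 8.21 ± 1.99 points on average, the smallest p of any member region (unadjusted p = 0.00100) and still not called (adjusted p = 0.138, and 0.138 to 0.416 over its alternatives, in which the difference in percentile points was 6.43 to 15.01).

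The other regions of *Btg2* were weaker or did not separate the groups. The region 9.45 kb beyond the gene end had percentiles of 20.2, 4.24 and 5.15 in DOX and 2.91, 3.76 and 1.35 in PBS. The region 8.0 kb upstream had 1.05, 8.76 and 3.96 in DOX and 0.461, 0.365 and 0.421 in PBS. Both lay near the bottom of the ranking, and neither was called (adjusted p = 0.543 and 0.660), although the groups did not overlap in either. The strong region 13.99 kb upstream had percentiles of 91.0, 94.8 and 92.5 in DOX and 93.7, 94.4 and 91.4 in PBS, with a difference of -0.40 ± 1.04 (adjusted p = 0.908). Regions of the same gene lie side by side and are not independent of each other.

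*Ccng1* encodes cyclin G1, a p53 target that recruits a phosphatase to Mdm2. The gene (chr11:40748552-40755309) had 1 peak in every library, at its start (chr11:40754632-40755715), over the half-site printed above. This was the highest-ranking member region, with percentiles of 99.4, 99.1 and 99.2 in DOX, against 97.7, 98.6 and 99.2 in PBS. PBS replicate 3 lay within the range of DOX, and the difference was 0.75 ± 0.55 (adjusted p = 0.587).

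Among the members that act in apoptosis or its control, *Trp53inp1* encodes a nuclear protein that supports p53 phosphorylation and also takes part in autophagy. The gene (chr4:11156441-11174379) had 7, 7 and 7 peaks in DOX, against 5, 6 and 6 in PBS, with no overlap, as for 2.7% of tested genes in this direction. The log2 fold change was 0.29 ± 0.08 (limma unadjusted p = 0.0191, adjusted p = 0.594; exact permutation test, p = 0.10). Without PBS replicate 1 the counts had no spread in either group and the difference was called (0.21, adjusted p = 0.00172), and in lists of the strongest 32731 peaks its sign was reversed (-0.24, adjusted p = 0.742).

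Inside *Trp53inp1* lay the only member region listed in every DOX and no PBS library (chr4:11166625-11166791, 167 bp), against 623 of 78613 regions genome-wide (0.792%). Its peaks had pileups of 28, 35 and 41 in DOX replicates 1, 2 and 3. Their fold enrichments, the authors' values for each peak, were 10.7, 13.5 and 13.03. The peaks stood at percentiles 18.0, 27.1 and 20.8 of their lists, in the weak part, and none was among the strongest 32731 peaks. In the full deposited lists, too, it was in every DOX and no PBS library, as were 1.9% of 113038 regions. The absence of a peak means only that the signal stayed under that library's threshold. No member region was listed in all PBS and no DOX libraries, against 238 regions genome-wide (0.303%), and none in the full lists either (0.038% genome-wide).

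The other regions of *Trp53inp1* overlapped between groups. The region at the gene end with the lower coordinate (chr4:11155709-11157124) had percentiles of 96.4, 97.2 and 96.7 in DOX and 96.9, 96.7 and 97.3 in PBS, with a difference of -0.23 ± 0.58 (adjusted p = 0.904). A region inside the gene (chr4:11157886-11158547) had 26.4, 27.4 and 18.9 in DOX and 22.1, 40.2 and 37.0 in PBS, with a difference of -8.85 ± 6.39 (adjusted p = 0.583). The distant region 32.7 kb away had 42.4, 59.5 and 52.4 in DOX and 45.8, 56.6 and 51.5 in PBS, a difference of 0.091 ± 4.85 (adjusted p = 0.997). A short region inside the gene was missing from the PBS replicate 1 list alone, which with the region described above made up the difference in peak number.

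**Figure D3:**
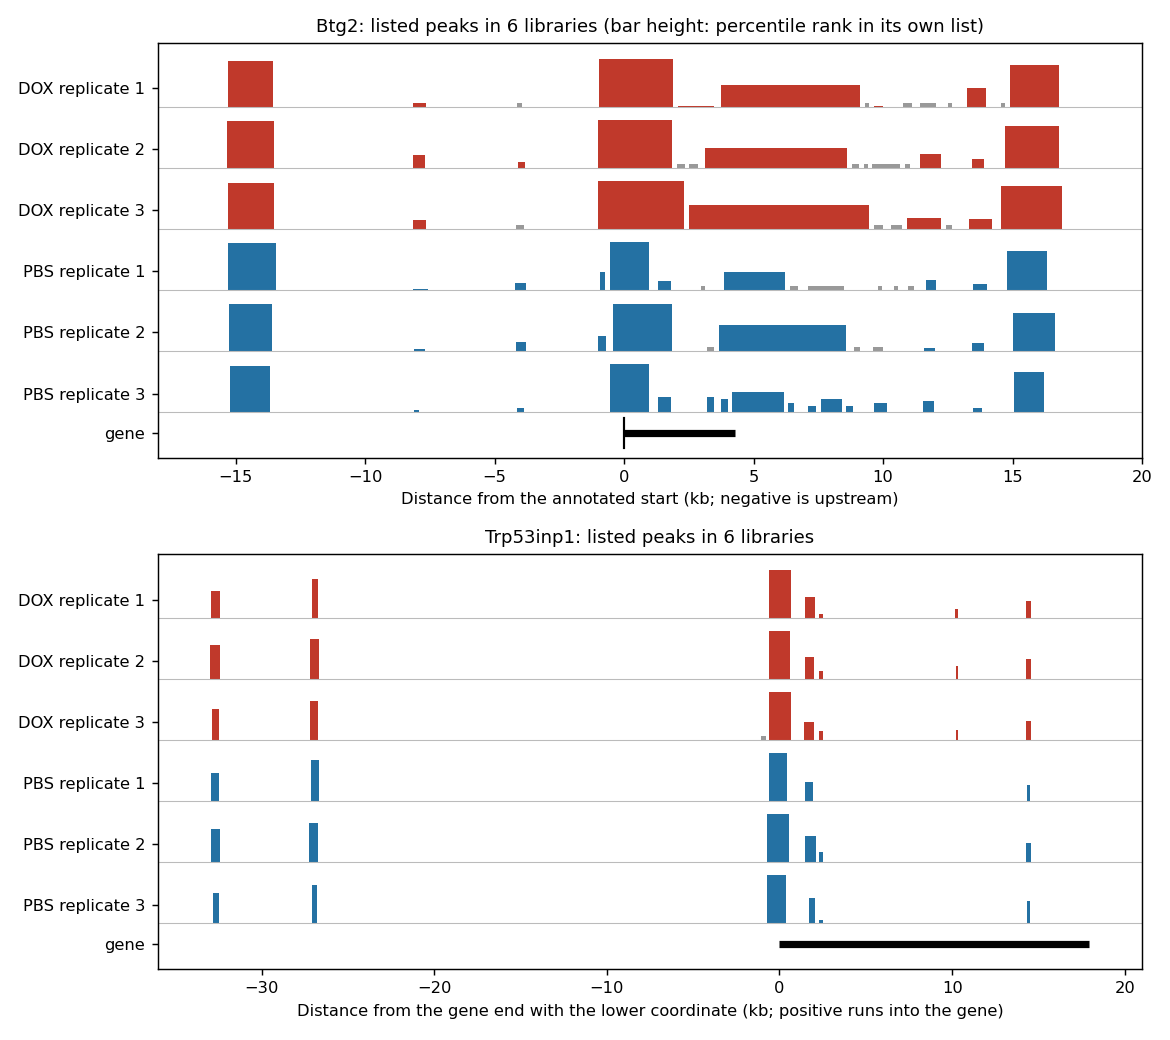
Listed peaks around *Btg2* (top) and *Trp53inp1* (bottom) in 3 DOX libraries (red, above) and 3 PBS libraries (blue, below), by distance in kb from the *Btg2* start and from the lower-coordinate end of *Trp53inp1*; bar height is the percentile of the peak in its own equal-length list, grey bars are peaks only in the full deposited list and black bars are the genes. In the equal-length lists, peaks of the *Btg2* gene region are fewer in DOX and the strongest of them is wider. With the grey bars, DOX replicate 2 and PBS replicate 2 both have 6 peaks there. One small *Trp53inp1* peak inside the gene appears in DOX libraries alone.

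*Bbc3* encodes Puma, a BH3-only protein that triggers mitochondrial apoptosis. The gene (chr7:16308398-16318334) had 3 peaks in every library. Its start region (chr7:16308905-16314483) was a single peak of 5340, 5512 and 5519 bp in DOX and 5279, 5476 and 5385 bp in PBS, and it covered all 3 annotated starts. Its percentile was 90.2, 90.4 and 88.0 in DOX and 87.4, 86.9 and 88.5 in PBS, with a difference of 1.93 ± 1.05 (adjusted p = 0.449). The summit lay 80 to 86 bp before the first start in all 3 DOX libraries and in PBS replicate 2, and 3641 and 3642 bp after it in PBS replicates 1 and 3. The region 8.56 kb before the gene (chr7:16299376-16300343) had percentiles of 83.1, 87.7 and 89.0 in DOX, against 84.9, 82.2 and 75.3 in PBS. The groups overlapped, with a difference of 5.82 ± 2.18 (unadjusted p = 0.0181, adjusted p = 0.281), which was 2.85 without PBS replicate 3. A weak region 1.26 kb from the gene had a difference of -3.08 ± 5.72 (adjusted p = 0.862), which was -0.24 without PBS replicate 3.

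*Phlda3* encodes a PH-domain protein that competes with Akt for membrane lipids. The gene (chr1:135766085-135769134) had 3, 3 and 3 peaks in DOX and 4, 5 and 3 in PBS (log2 fold change -0.34 ± 0.18, limma adjusted p = 0.735). Its 3 shared regions ranked alike and high. The start region (chr1:135765494-135768057) had percentiles of 84.5, 82.8 and 88.3 in DOX and 86.7, 84.6 and 83.5 in PBS, with a difference of 0.24 ± 1.52 (adjusted p = 0.967). The region 6.22 kb upstream had 83.5, 80.8 and 84.4 in DOX and 85.9, 77.2 and 67.7 in PBS, a wider spread in PBS, and a difference of 5.96 ± 3.24 (adjusted p = 0.451). That difference was 1.24 without PBS replicate 3, the lowest library, and 10.3 without PBS replicate 1. The region 1.98 kb beyond the gene had 84.2, 87.5 and 82.3 in DOX and 86.7, 78.0 and 80.0 in PBS.

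*Perp*, a p53 and p63 target that encodes a desmosomal membrane protein of epithelia, stood apart from the other members. The gene (chr10:18845071-18857073) had 1, 1 and 3 peaks in DOX and 2, 3 and 2 in PBS (log2 fold change -0.49 ± 0.43, limma adjusted p = 0.794), and none of these lay at a gene end. A weak peak at its lower-coordinate end (chr10:18844878-18845290) was in the full lists of all libraries except PBS replicate 3. Its only shared region lay 60.2 kb away (chr10:18917125-18917551), the farthest of any member and well within the limit of 100 kb. That region had percentiles of 35.7, 24.7 and 35.8 in DOX, against 38.3, 39.2 and 45.1 in PBS. All DOX libraries were below all PBS libraries, and the difference was -8.80 ± 5.51 (adjusted p = 0.521).

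*Polk* encodes DNA polymerase kappa, which copies past damaged bases. The gene (chr13:96480687-96542579) had 3, 4 and 4 peaks in DOX and 3, 2 and 3 in PBS (log2 fold change 0.40 ± 0.20, limma adjusted p = 0.655). Its start region (chr13:96542133-96543668) had percentiles of 98.2, 98.3 and 98.4 in DOX and 98.9, 98.5 and 97.6 in PBS, with a difference of -0.034 ± 0.55 (adjusted p = 0.988). Both other shared regions lay inside the gene. That at chr13:96533569-96534080 had percentiles of 43.0, 50.5 and 41.4 in DOX and 56.9, 26.4 and 37.0 in PBS, with a difference of 4.86 ± 6.72 (adjusted p = 0.800). A further weak region inside the gene was in the equal-length lists of DOX replicates 2 and 3 and of no PBS library, and in the full deposited lists of 3 DOX and 2 PBS libraries.

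Beyond the members, 45 other genes of the p53 pathway were counted in the same fits. Of these 32 had enough peaks to be tested, and 0 were called higher or lower (smallest adjusted p = 0.655), against the 1.1% over all tested genes. Estimates were higher in DOX for 15, lower for 8 and equal for 9. Their 138 shared regions had 0 calls, a median difference of -0.078 percentile points, and groups without overlap in 16 regions with DOX higher, against 9.37% of all shared regions, and in 15 with DOX lower, against 9.41%. None of their 199 regions was listed in every library of 1 group and in none of the other, against 0.792% (DOX) and 0.303% (PBS) of all regions.

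The largest estimate in each group of that list was as follows. Among regulators it was that of *Ppm1d*, a phosphatase that removes damage marks, with 3, 2 and 3 peaks in DOX and 3, 3 and 4 in PBS (log2 fold change -0.28 ± 0.20, adjusted p = 0.794). Among arrest and growth genes it was that of *Sesn1*, a stress-induced inhibitor of mTORC1 signalling, with 3, 5 and 3 peaks in DOX and 4, 4 and 5 in PBS (-0.24 ± 0.23, adjusted p = 0.794). Among apoptosis genes it was that of *Pmaip1*, which encodes the BH3-only protein Noxa, with 9, 9 and 8 peaks in DOX and 7, 8 and 7 in PBS (0.23 ± 0.08, adjusted p = 0.655). Among repair and metabolism genes it was that of *Dram1*, a lysosomal regulator of autophagy, with 6, 4 and 4 peaks in DOX and 5, 6 and 6 in PBS (-0.27 ± 0.19, adjusted p = 0.794). The groups overlapped or met at the same count in these 4 genes.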

How the data were processed

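ATAC-seq peaks of 3 DOX and 3 PBS libraries were analysed, grouped by sample title. The authors deposited 1 peak list per library, with build mm10 and tools including Bowtie2 2.4.5 and MACS2 2.2.7.1 per the submitters' processing notes; peak-caller settings, read filters and any Tn5 shift are not given there or in the labels. The authors gave each deposited peak a fold enrichment (a ratio to background), a −log10 p, a −log10 q, a score and a summit position (another value, in bp), none scaled between libraries. Here they ranked peaks within a library and gave depth: fold and −log10 p fix the pileup and background under a Poisson model, and in each library all peaks solved gave the same background to within 1% and whole pileups. There are no read counts per region, so no count model was fitted.

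Chromosome Y peaks (13 to 19 per library) were left out. The strongest 65462 peaks of each library, the shortest list's length, were kept, and their lowest pileup was 20, 21 and 28 in DOX and 16, 14 and 5 in PBS. Peaks overlapping by at least 1 bp formed 78613 regions, of which 49098 were shared by all 6 libraries. Gene spans and promoters came from RefSeq tables (GRCm38.p6), and all 10 members matched. Peaks at the same distance from more than 1 gene counted for each. A region took its strongest peak. Peaks per gene (log2(peaks + 0.5), mean of at least 2) and percentile ranks of shared regions were tested over all genes or regions with limma 3.58.1 (trend and robust moderation, R 4.3.3), with Benjamini-Hochberg adjustment at 0.05. Single values used a two-sided exact permutation test. Any p-value thus reflects library-to-library spread, which may be technical.

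On simulated data with 200 genes or regions changed 2-fold, 69.5% of genes were recovered with 82 false calls of 221. When each spread was raised to that of similar genes, 98% were recovered with 30 false calls of 226. Among regions 74% were recovered, with 5 false calls of 153. The changed genes were drawn only from genes with more peaks than *Mdm2*, *Perp*, *Bbc3*, *Polk* and *Phlda3* had on average. The spread of simulated regions was a fixed value, not estimated from these libraries. These shares therefore do not measure how often a change at the members would be found. Named regions were those at gene starts, the strongest of each member, those listed in 1 group only, and the largest difference in each direction, and the named pathway genes had the largest estimate of each group of the list. The members and lists were chosen with earlier results of these data known. Alternatives were other list lengths, overlaps, pseudocounts, filters and rank scales, raised spread, a replicate block and leaving out each library. Samples with the same replicate number did not deviate together throughout (correlations of -0.020, -0.034 and -0.0047 over genes and 0.141, -0.132 and 0.051 over regions), so the numbers were not treated as pairs. Sequence outside the promoter table was not analysed here.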

Additional observations from a re-analysis of the deposited data

How the results depend on the processing

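Of 426 values of single members under alternatives, 400 showed no change of sign and kept their side of the threshold. Another 25 changed sign without a call and 1 gained a call, *Trp53inp1* peaks without PBS replicate 1 (0.21). The 400 include values with no direction to keep, such as all those of *Mdm2* and *Bbc3* peaks, whose main estimates showed no difference. The cause of these changes was not tested. Genes called by peak number (50 higher, 48 lower) became 21 and 16 with the replicate block, 0 and 0 with raised spread, 114 and 90 with no filter, 10 and 4 with all deposited peaks, 26 lower with regions counted in place of peaks, and 102 to 148 and 69 to 138 with 1 library left out. Of 34 nonzero member estimates, 31 moved by more than 1.5 times without some library, 19 of them without PBS replicate 3. The block changed no call of the 36 member values. Region ranks gave 0 calls in every setting except 1 lower region without DOX replicate 1. Regions listed only in DOX (623) numbered 2151 in all deposited peaks, 293 in the strongest 32731 peaks, and 955 to 1457 with 1 library left out; those only in PBS (238) numbered 43 in all deposited peaks and 383 to 681. Member regions listed only in DOX (1) became 0 in the strongest 32731 peaks and 1 to 2 (*Polk* added) with 1 library left out, and those only in PBS 0 to 1 (*Btg2*). Signs changed for *Cdkn1a* peaks with all deposited peaks (0.11), *Trp53inp1* peaks in the strongest 32731 peaks (-0.24) and the *Polk* region at 11.1 kb with normal scores (-0.0072). With 1 library left out, percentile differences spanned -0.60 to 0.96 for *Trp53*, -4.42 to 10.3 for *Mdm2* 7.0 kb upstream, -2.76 to 0.60 for *Cdkn1a* 11.9 kb upstream, -1.38 to 0.47 for *Btg2* 13.99 kb upstream, -3.93 to 4.57, -3.08 to 1.17 and -6.16 to 1.79 for *Trp53inp1* 32.7 kb and 26.9 kb away and its last region, -1.30 to 1.45 for the *Phlda3* start, and -4.05 to 2.4, -1.97 to 13.1 and -0.36 to 0.25 for *Polk* regions inside the gene and at its start. Where a group had 2 libraries, limma pooled the spread over both groups. Shallow PBS libraries limit what a missing peak can show.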
